A study of Macaca mulatta with 52 samples.

Results

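Single rhesus monkey (Macaca mulatta) embryos were compared at consecutive stages before implantation, the 8-cell embryo and the morula, by RNA sequencing of libraries made with the SPIA kit, which copies cDNA in a linear reaction. The comparison takes in 20 libraries, 9 of 8-cell embryos and 11 of morulas, out of 52 samples in the series, of which 49 had a matching column of counts. The libraries were chosen from the labels alone, by stage, by kit and by a match between column name and sample title, and no measured value entered the choice. A second kit, SoLo, was run on 4 of these 8-cell embryos and 4 of these morulas, of which 3 morulas had a matching column and are analysed here. Its values are given beside the SPIA values as a repeat on the same embryos and not as independent embryos.

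The labels name no genetic change in either group and describe 1 culture protocol for both. Oocytes matured in females stimulated with recombinant FSH and hCG, were fertilised in vitro and were grown in the protein-free medium HECM-9, to which bovine calf serum was added later. The protocol describes culture with or without relaxin, and which embryos received it is not in the labels, so an effect of relaxin and an effect of stage cannot be told apart. Cumulus cells, the granulosa-type cells that surround the oocyte, were to be removed by pipetting before RNA extraction. Ages of the females, the number of parents and the day of collection are not given in the labels used here. Titles carry a numeric code (020816, for example) that embryos of a group can share. There were 3 codes among the 8-cell embryos, 4 among the morulas and only 1 in common, with 5 8-cell embryos and 3 morulas, so stage and code cannot be told apart outside that code. Nothing in the labels says that embryos of a group had separate parents, so the p-values measure only the spread between the libraries fitted. In the main fit these include the blastocyst libraries of the series.

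In primates the embryo's own genome takes over from the RNA stored in the oocyte around the 8-cell stage, and stored transcripts are cleared. Blastomeres then flatten against each other (compaction), acquire an outward-facing surface and build the junctions that will seal the blastocyst. Outer cells of the morula begin to differ from inner cells, with angiomotin proteins and the Hippo kinases at the junctions acting on whether the co-activator YAP enters the nucleus. Each library holds the RNA of a whole embryo, so a change per cell and a change in the share of cells of a type cannot be told apart, and all levels are relative to the rest of the library.

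Levels below are counts per M (mega) after trimmed-mean scaling (CPM). A gene is called changed, and is said to have risen or fallen in morulas, at an edgeR adjusted p under 0.05. Log2 fold changes are morula over 8-cell and are followed by ± their standard error. All gene values are over 9 8-cell libraries and 11 morulas unless stated.

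Library totals ran from 5.08 to 20.6 M counts at the 8-cell stage (median 13.8 M) and from 5.06 to 21.045 M in morulas (median 8.06 M). The 13 identifiers without a symbol among the 20 of highest count took 2.85 to 45.9% of the counts of 8-cell libraries and 16.5 to 60.4% of those of morulas. The 3 morulas above 12 M counts, 020816_04, 022916_02 and 022916_03, held the lowest such shares among morulas (16.5, 17.6 and 25.4%). On the first principal component of the 1000 most variable genes, which took 32.5% of the variance, 8 of the 9 8-cell libraries lay between 15.6 and 95.5 and 10 of the 11 morulas between -54.4 and -2.71. The exceptions were 8-cell 011516_02 at -7.09 and morula 022916_02 at 39.0, which lay among the 8-cell embryos. 8-cell 020816_09 (69.7) and morula 022916_03 (56.8) stood apart on the second component. Markers of cumulus and granulosa cells summed to 709, 2714 and 1587 CPM in 8-cell 020816_06, 020816_07 and 112815_02 and to 770.4 CPM in 8-cell 011516_02. The first 3 are called the embryos with cumulus transcripts here. Because 011516_02 held a sum as high as theirs, a fit without all 4 was added after seeing the data. In the other 8-cell libraries they summed to 49.7 to 307 CPM, and in morulas to 7.92 to 199 CPM. All 3 of the embryos 020816_06, 020816_07 and 112815_02 are also among the 4 SoLo 8-cell libraries.

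**Figure D1:**
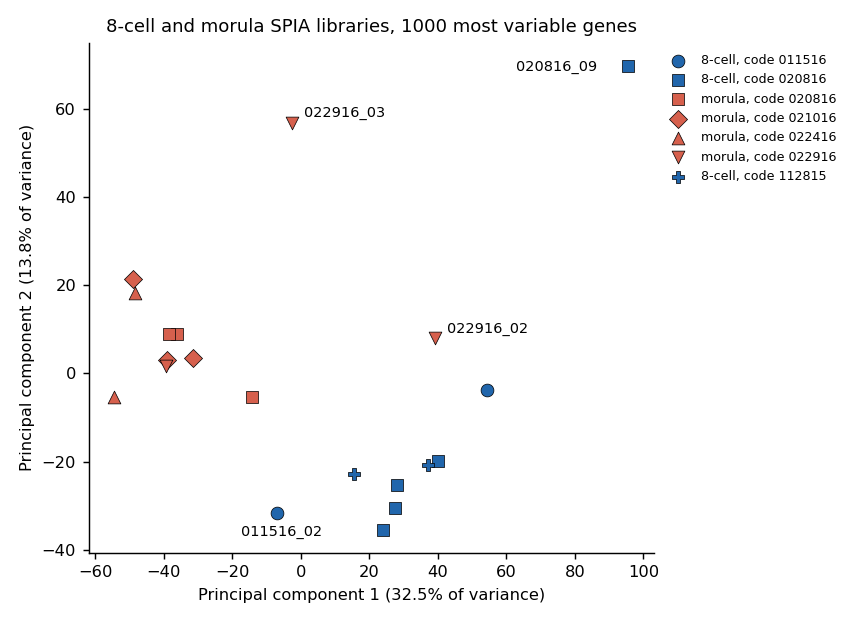
First (horizontal) and second (vertical) principal components of log2(CPM + 1) over the 1000 most variable genes, with a point per SPIA library, blue for 8-cell and red for morula, and a symbol per title code. 8-cell 020816_09 lies at 95.5 and 69.7, and morula 022916_02 at 39.0 on the first component, among the 8-cell embryos.

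Which genes differ between the stages was asked first across all 15578 tested identifiers. In all, 3024 (19.4%) were called, 1412 higher in morulas (9.06%) and 1612 lower (10.3%), and the median log2 fold change was -0.14. Most called changes were large, with 1144 genes higher and 1352 lower by more than 2 on the log2 scale, although 382 of the called genes had no count in any library of a group and so have a lower bound rather than a fold change. With those genes set at their bound, the counts past 2 were 1143 and 1349. That fit takes its estimate of the spread from the blastocyst libraries as well. With the 8-cell and morula libraries fitted alone, 9329 genes passed the filter on low counts and 446 (4.78%) were called, 208 higher and 238 lower. All 1441 called genes that were tested in that fit kept their sign, and 444 of them were called again. Both fits hold the same 8-cell and morula libraries, so the kept sign was nearly fixed beforehand and is no support. The spread among libraries differed between stages. Over 4890 genes at 10 CPM or more on average in each group, the median SD of log2(CPM + 1) was 1.44 in 8-cell embryos, 1.27 in morulas and 0.748 in expanded blastocysts.

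Many called genes rested on single embryos. In 964 of the 1612 lower genes a single 8-cell library held over 50% of the summed 8-cell CPM, and in 447 of them that library was 020816_09. In 651 of the 1412 higher genes a single morula did so. Without 020816_09, 2967 of the 3024 genes were tested and 2287 were called. A smaller set of 345 genes (177 higher and 168 lower) was called again in each of 4 other fits, namely with the 2 stages alone, without 020816_09, without the 3 embryos with cumulus transcripts, and in limma voom with title code as a random effect. They are called repeat-called genes here. The voom fit estimated a correlation of -0.0345 within title codes, so it made almost no allowance for title code. Among repeat-called genes the morula nearest to the 8-cell embryos was most often 022916_02. It was the lowest morula for 78 of the 177 higher genes and the highest for 66 of the 168 lower genes. Between the 5 8-cell embryos and 3 morulas that share a code, which also entered the fits above, all 172 repeat-called higher genes tested and all 168 lower genes had the same sign. In SoLo, where 9.78% of 14196 tested genes were called higher and 6.92% lower, 175 of 177 and 163 of 167 had the same sign, and 143 and 96 were called.

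**Figure D2:**
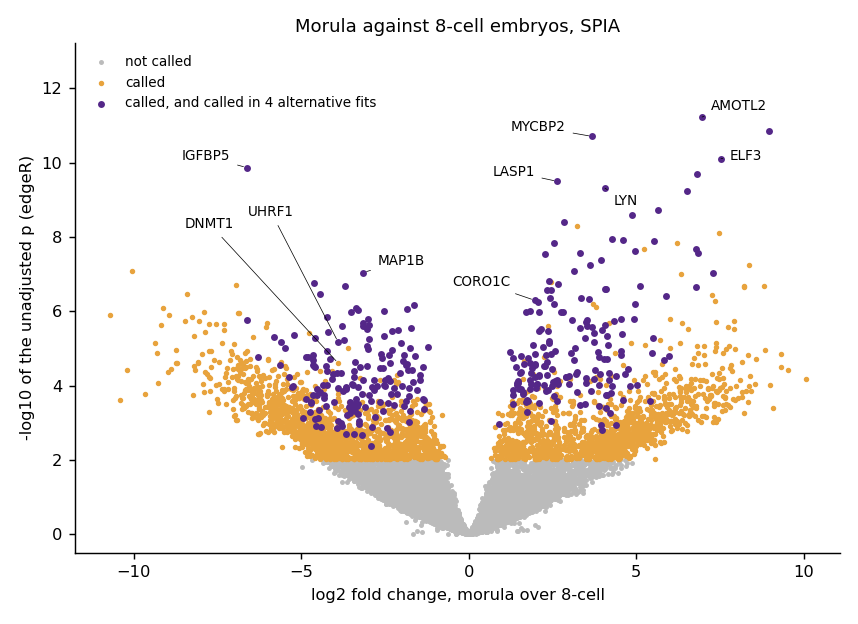
Log2 fold change of morula over 8-cell (horizontal axis) against -log10 of the unadjusted edgeR p (vertical axis), with a point per tested gene. Grey points were not called, orange points were called, and purple points are the 345 genes called again in 4 other fits. AMOTL2 lies at 6.97 and IGFBP5 at -6.62.

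The 4 genes proposed as markers of the comparison were chosen with earlier results of these data known. AMOTL2, LYN and ELF3 separated the groups with few or no exceptions, and UHRF1 did so only in part. AMOTL2, an angiomotin family protein that holds YAP at junctions, stood at 0 to 2.15 CPM (median 0.227) in 8-cell embryos and 10.4 to 192 CPM (median 57.5) in morulas (6.97 ± 0.77, edgeR adjusted p = 9.19e-08). Every morula lay above every 8-cell embryo. LYN, a SRC family tyrosine kinase, stood at 0.725 to 24.1 CPM (median 3.06) in 8-cell embryos and 8.68 to 170.5 CPM (median 106) in morulas (4.07 ± 0.53, adjusted p = 9.53e-07). Its lowest morula was 022916_02, which lay below the highest 8-cell embryo, 020816_09, while the other 10 morulas lay above all 8-cell embryos. ELF3, an epithelial ETS factor, stood at 0 to 0.290 CPM (median 0.132) in 8-cell embryos and 0.0402 to 122 CPM (median 12.2) in morulas (7.53 ± 0.91, adjusted p = 3.04e-07). Morula 020816_04, at 0.0402 CPM, was the only one inside the 8-cell range. UHRF1, which brings the maintenance methyltransferase to newly replicated DNA, stood at 20.1 to 2599 CPM (median 347) in 8-cell embryos and 2.66 to 177 CPM (median 18.7) in morulas (-3.90 ± 0.74, adjusted p = 0.000734). All 11 morulas lay below the 8-cell median and 6 lay below every 8-cell embryo. In SoLo the log2 fold changes were 4.90 ± 0.78 for AMOTL2, 4.71 ± 0.28 for LYN, 4.68 ± 1.00 for ELF3 and -2.81 ± 0.36 for UHRF1.

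Genes whose groups did not overlap at all were rare. In 13 of 15578 tested genes (0.0835%) every morula lay above every 8-cell embryo, and in another 13 (0.0835%) every morula lay below. Of these 26, 25 were called, and 22 have a symbol. They are named here because of that pattern, after their values were seen, so the absence of overlap is a description and no test. Besides AMOTL2 the higher ones were ASNS, KLF4, FGFR2, SLCO1A2, CTSL, GCSH, CORO1C and PAFAH1B1. KLF4, a zinc finger factor of the pluripotency network, stood at 0.365 to 41.2 CPM (median 25.0) in 8-cell embryos and 62.3 to 504 CPM (median 181) in morulas (3.31 ± 0.50, adjusted p = 1.75e-05). FGFR2, the receptor through which FGF reaches early epithelial and endoderm cells, stood at 0.182 to 28.9 CPM (median 6.19) in 8-cell embryos and 30.7 to 478 CPM (median 115) in morulas (3.96 ± 0.61, adjusted p = 2.42e-05). CORO1C, a coronin that binds the actin cortex, stood at 17.2 to 86.6 CPM (median 71.6) in 8-cell embryos and 119.8 to 706 CPM (median 180.5) in morulas (1.98 ± 0.34, adjusted p = 0.000141). PAFAH1B1 (LIS1), a regulator of the dynein motor, stood at 40.6 to 96.0 CPM (median 64.5) in 8-cell embryos and 106 to 557 CPM (median 166) in morulas (1.55 ± 0.33, adjusted p = 0.00125). The gaps between the groups were narrow for CORO1C and PAFAH1B1, whose lowest morulas lay at 120 and 106 CPM against highest 8-cell values of 86.6 and 96.0 CPM. SLCO1A2, an organic anion transporter, was low at both stages, at 0 to 0.663 CPM (median 0.0392) in 8-cell embryos and 0.999 to 79.5 CPM (median 2.41) in morulas (6.79 ± 1.13). GCSH, the H protein of the mitochondrial glycine cleavage system, had no count in any 8-cell embryo and stood at 0.0402 to 6.27 CPM in morulas. Against a floor of 3 counts over the 8-cell group it was at least 90.6-fold higher. Morulas 020816_04 and 022916_02 held only 0.0402 and 0.04115 CPM, so the absence of overlap for GCSH rests on very few counts.

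The genes below every 8-cell embryo in all morulas were mostly well expressed before. MAP1B, a microtubule-associated protein best known from neurons, stood at 166 to 926 CPM (median 406) in 8-cell embryos and 2.01 to 122 CPM (median 42.9) in morulas (-3.15 ± 0.50, adjusted p = 4.56e-05). GRAMD1B, which carries cholesterol from the plasma membrane to the endoplasmic reticulum, stood at 103 to 370.3 CPM (median 173) in 8-cell embryos and 0 to 54.7 CPM (median 1.75) in morulas (-4.61 ± 0.75, adjusted p = 7.45e-05). SLC34A2, a sodium phosphate cotransporter and an 8-cell gene in primate embryos, stood at 96.9 to 468 CPM (median 256) in 8-cell embryos and 0.144 to 79.3 CPM (median 10.4) in morulas (-3.68 ± 0.61, adjusted p = 7.93e-05). These fell to morula medians of 42.9, 1.75 and 10.4 CPM. IRAG1, a regulator of calcium release through the inositol trisphosphate receptor, stood at 17.0 to 194 CPM (median 102) against 0.313 to 16.9 CPM (median 2.75) (-4.45 ± 0.75, adjusted p = 0.000108), 8-cell values first. CHST15, a chondroitin sulfotransferase, stood at 78.1 to 576 CPM (median 181) against 2.72 to 56.6 CPM (median 16.7) (-3.02 ± 0.55), and RNF168, a ubiquitin ligase that marks chromatin at DNA breaks, at 117 to 377 CPM (median 169) against 17.8 to 92.4 CPM (median 42.6) (-2.11 ± 0.40). The neurofilament gene NEFH (-3.03 ± 0.66), the actin-binding gene RAI14 (-3.15 ± 0.59), the WNT pathway gene FRAT2 (-3.20 ± 0.79), the nuclear envelope gene NEMP1 (-2.40 ± 0.62), C13H2orf74 (-4.66 ± 1.15) and the zinc finger genes ZNF600 (-3.52 ± 0.63) and ZSCAN5A (-3.16 ± 0.73) completed the set. All 13 lower genes were called with the 2 stages alone, as were 10 of the 11 higher ones tested there. In SoLo all 26 had the same sign, and 12 of the 13 higher and 10 of the 13 lower genes were called. NEMP1 (-0.69 ± 0.36, adjusted p = 0.189) and RAI14 (-1.10 ± 0.46, adjusted p = 0.105) were among the lower genes that were not.

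**Figure D3:**
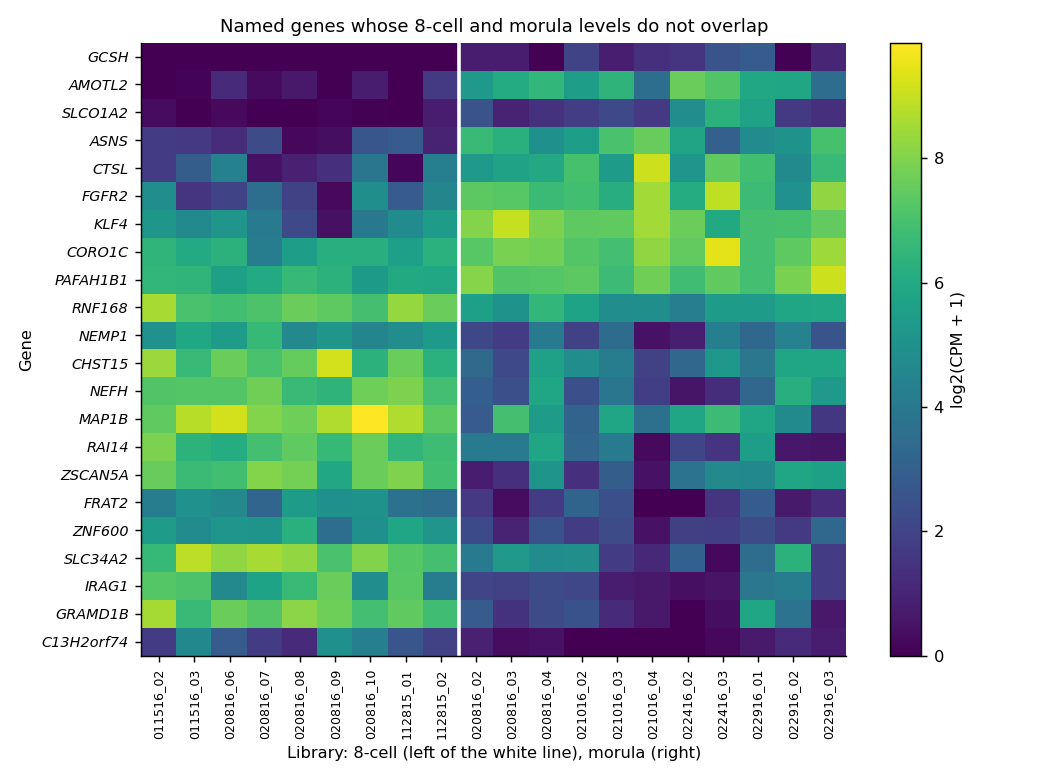
Level (colour, log2(CPM + 1)) of the 22 named genes whose groups do not overlap, with a row per gene, ordered by fold change, and a column per SPIA library, 8-cell embryos left of the white line and morulas right. GCSH is 0 in all 8-cell embryos, and MAP1B ranges from 166 to 926 CPM there against 2.01 to 122 CPM in morulas.

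Genes were also sorted by presence, taking a gene as gained where its 8-cell median lay under 0.5 CPM and at least 80% of morulas reached 5 CPM, and as lost in the reverse case. By that rule 40 genes were gained (34 of them called) and 15 lost (8 called). Gained genes included KRT18, a simple-epithelium keratin, the T-box factor TBX3, the ganglioside-binding GM2A, the calcium-binding RCN2, TMEM150C, the choline transporter SLC44A1, STOM and the histone deacetylase HDAC7. TMEM150C stood at 0.0755 to 1.66 CPM (median 0.152) in 8-cell embryos and 0.975 to 146 CPM (median 23.5) in morulas (6.82 ± 0.85, adjusted p = 5.28e-07). GM2A, a lysosomal lipid-transfer protein, stood at 0 to 2.32 CPM (median 0.227) in 8-cell embryos and 0.453 to 114 CPM (median 57.6) in morulas (6.51 ± 0.84, adjusted p = 1e-06). RCN2, a reticulocalbin of the endoplasmic reticulum, stood at 0.157 to 2.73 CPM (median 0.290) in 8-cell embryos and 0.165 to 230.3 CPM (median 22.3) in morulas (5.53 ± 0.81, adjusted p = 1.19e-05). In TMEM150C the highest 8-cell value was that of 112815_02, an embryo with cumulus transcripts, and 10 of 11 morulas lay above it. HDAC7 rose by 7.30 ± 1.17, STOM, a membrane scaffold protein, by 5.12 ± 0.85, and SLC44A1 by 4.97 ± 0.87 (adjusted p between 4.63e-05 and 0.000162). Lost genes included CCND1, the D-type cyclin, SPDYC, a speedy family activator of CDK2, SLC16A6, a monocarboxylate transporter family member, and TCEAL4. CCND1 stood at 4.797 to 524 CPM (median 20.2) in 8-cell embryos and 0 to 16.2 CPM (median 0.0402) in morulas (-5.65 ± 1.21, adjusted p = 0.00168). SPDYC stood at 2.98 to 290.3 CPM (median 25.8) in 8-cell embryos and 0 to 13.6 CPM (median 0.494) in morulas (-4.60 ± 0.90, adjusted p = 0.000603). In both genes all morulas lay below the 8-cell median, and 10 (CCND1) and 8 (SPDYC) lay below every 8-cell embryo. SLC16A6 was at 0 in the median morula and at 21.2 CPM in the median 8-cell embryo (-6.62 ± 1.22), and TCEAL4 fell by 4.08 ± 0.94 on the log2 scale. Leaving out 1 library at a time, 31 to 55 genes were gained and 4 to 30 lost.

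The lists used below were written with earlier results of these data known, so their counts describe the comparison and are not independent evidence of direction. Each count is set beside the shares over all tested genes, 9.06% higher and 10.3% lower, and list medians beside -0.14.

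Genes of cell contact and of the actin cortex were called higher more often than lower. Of 25 tested adherens junction and desmosome genes, 8 rose (32.0%) and 2 fell, with a median of 0.94, and of 27 tight junction and polarity genes 6 rose and 1 fell, with a median of 0.45. The desmosomal plaque protein DSP stood at 22.4 to 264 CPM (median 44.5) in 8-cell embryos and 194 to 1279 CPM (median 345) in morulas (2.17 ± 0.41, adjusted p = 0.000409). EPCAM, an epithelial adhesion molecule, stood at 0.638 to 136 CPM (median 28.4) in 8-cell embryos and 63.4 to 784 CPM (median 141) in morulas (2.27 ± 0.49, adjusted p = 0.00172). For both genes every morula lay above the 8-cell median. The desmosomal cadherins DSC2 (2.54 ± 0.57) and DSG2 (1.28 ± 0.34) rose too, as did E-cadherin, CDH1, at 5.80 to 496 CPM (median 33.8) in 8-cell embryos and 72.3 to 586 CPM (median 301) in morulas (1.83 ± 0.49, adjusted p = 0.00863). For CDH1, 8-cell 020816_09 held 496 CPM, above 9 of the 11 morulas. CLDN4, a claudin, was at most 0.145 CPM in 8-cell embryos and was spread from 0 to 66.2 CPM in morulas, of which 5 lay above that level. With the stages fitted alone DSP and EPCAM were called, and DSC2, DSG2 and CDH1 were not (adjusted p = 0.051, 0.0596 and 0.0683). In SoLo 11 of 24 adherens junction and desmosome genes and 10 of 26 tight junction and polarity genes rose.

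Of 39 genes of the actin cortex, 8 rose and 2 fell (median 0.49), and 7 of these 10 are repeat-called. ACTN1, an actin crosslinker at adhesion sites, stood at 0.182 to 9.07 CPM (median 1.59) in 8-cell embryos and 0.288 to 174 CPM (median 77.0) in morulas (4.60 ± 0.67, adjusted p = 1.14e-05). The spectrins SPTBN1 and SPTAN1, which line the plasma membrane, rose together. SPTBN1 stood at 10.5 to 309 CPM (median 70.6) in 8-cell embryos and 141 to 1074 CPM (median 624) in morulas (2.55 ± 0.38, adjusted p = 1.2e-05) and SPTAN1 at 3.23 to 39.1 CPM (median 23.4) in 8-cell embryos and 29.99 to 229.9 CPM (median 143) in morulas (2.41 ± 0.39, adjusted p = 7.21e-05). In SPTBN1 every morula lay above the 8-cell median and 9 lay above all 8-cell embryos. LASP1, an actin-binding LIM protein, stood at 32.4 to 191 CPM (median 83.3) in 8-cell embryos and 144 to 1035 CPM (median 547) in morulas (2.65 ± 0.34, adjusted p = 7.09e-07). MYH10, the non-muscle myosin IIB heavy chain, went the other way, at 20.4 to 1552 CPM (median 338) in 8-cell embryos and 21.6 to 244 CPM (median 30.9) in morulas (-2.54 ± 0.45, adjusted p = 0.000219). MYH9, the IIA heavy chain, was among the 8 that rose, with ACTB, MSN and MYL12B. The difference between the changes of MYH9 and MYH10 was not tested.

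Matrix and adhesion receptor genes were divided. Among 34 tested, 8 rose and 4 fell (median 0.35). The laminin chains LAMC1 and LAMB1 and the laminin-binding integrin ITGA6 rose. LAMC1 stood at 4.06 to 66.8 CPM (median 11.4) in 8-cell embryos and 11.2 to 493 CPM (median 158) in morulas (2.76 ± 0.49, adjusted p = 0.000223) and ITGA6 at 12.6 to 354 CPM (median 43.2) in 8-cell embryos and 151 to 619.6 CPM (median 266) in morulas (1.97 ± 0.41, adjusted p = 0.00111). LAMB1 rose by 2.23 ± 0.47, and AGRN, the basement membrane proteoglycan agrin, rose from a median of 0 CPM to one of 13.1 CPM. The 4 that fell were TIMP1, VCAN, FN1 and ITGA5. TIMP1, an inhibitor of metalloproteinases, stood at 0 to 299 CPM (median 23.5) in 8-cell embryos and 0 to 3.24 CPM (median 0.529) in morulas (-6.94 ± 1.14, adjusted p = 7.83e-05) and VCAN, the proteoglycan of expanded cumulus, at 0.745 to 1544 CPM (median 21.4) in 8-cell embryos and 0.340 to 16.5 CPM (median 1.95) in morulas (-6.03 ± 1.07, adjusted p = 0.000335). FN1, fibronectin, stood at 0.0785 to 588 CPM (median 135) in 8-cell embryos and 0.227 to 16.5 CPM (median 0.853) in morulas (-5.44 ± 1.26, adjusted p = 0.00368). TIMP1 and VCAN are themselves members of the list of cumulus and granulosa markers. Without TIMP1, VCAN and IGFBP5 that list summed to 219.7, 276.8, 497.2 and 255.2 CPM in 8-cell 020816_06, 020816_07, 112815_02 and 011516_02, to 242.8 and 242.2 CPM in 020816_09 and 112815_01, and to 4.06 to 59.2 CPM in the other 3. TIMP1 was at 120, 273, 203 and 299 CPM in 8-cell 020816_06, 020816_07, 112815_02 and 011516_02 and at 0 to 23.5 CPM in the other 5. FN1 was at 151 CPM in 020816_09 as well. Of 17 tested cumulus and granulosa genes 9 fell and 1 rose (median -3.15). Without the 3 embryos with cumulus transcripts 4 fell, and TIMP1 was at -6.13 (adjusted p = 0.000822), VCAN at -3.27 (0.0145) and FN1 at -3.86 (0.0187). That fit keeps 011516_02. Without all 4 embryos 2 of 13 tested list genes fell, IGFBP5 and GREM1, and TIMP1 (-2.73, edgeR adjusted p = 0.0997), VCAN (-0.78, 0.619) and FN1 (-3.11, 0.0523) were not called. LUM, a cumulus and granulosa marker of the list, was at 0 in all 20 libraries. How much of these 9 decreases comes from cumulus cells was not tested.

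Signalling lists differed in the shares called. These were 21.4% higher and 21.4% lower for SRC family genes, 20.7% and 17.2% for WNT genes, and 8.70% each for Hippo genes. Of 23 Hippo pathway genes 2 rose, AMOTL2 and WWC1 (KIBRA), an upstream scaffold of the Hippo kinases, and 2 fell. WWC1 stood at 0.0380 to 48.5 CPM (median 0.368) in 8-cell embryos and 3.31 to 139.6 CPM (median 53.2) in morulas (2.47 ± 0.80, adjusted p = 0.0253) and was not called with the stages alone (adjusted p = 0.148). In SoLo 10 of 23 Hippo genes rose and none fell. Among 14 SRC family kinases and partners LYN, YES1 and PTK2B rose while PAG1, PXN and SRC fell. None of the list was lower with the stages alone or in voom with title code. YES1 stood at 1.32 to 72.9 CPM (median 19.5) in 8-cell embryos and 16.2 to 348 CPM (median 78.3) in morulas (2.02 ± 0.48, adjusted p = 0.00367). FGFR2 was 1 of 3 genes that rose among 33 of FGF and MAP kinase signalling, a share (9.09%) close to that over all genes. Of 29 WNT genes 6 rose and 5 fell. With the stages alone 0 of 17 rose and 1 fell, and in SoLo 2 of 27 rose and 0 fell. TCF7L1, a transcriptional repressor of WNT targets, stood at 0 to 14.0 CPM (median 0.184) in 8-cell embryos and 1.52 to 52.0 CPM (median 22.6) in morulas (2.96 ± 0.80, adjusted p = 0.00864), and NKD1, an inhibitor of the pathway, at 0.397 to 209 CPM (median 22.7) in 8-cell embryos and 0.288 to 27.7 CPM (median 0.924) in morulas (-3.54 ± 0.90, adjusted p = 0.00584). Against the 8-cell median, 11 of 11 morulas lay higher for TCF7L1 and 10 of 11 lower for NKD1.

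Called genes of the BMP, NOTCH and insulin-like growth factor pathways were mostly lower. Of 28 genes of TGF-beta, nodal and BMP signalling 8 fell (28.6%) and 1 rose, with a median of -1.18. BMP4, a ligand, stood at 0.588 to 149 CPM (median 27.9) in 8-cell embryos and 0 to 7.12 CPM (median 0.4996) in morulas (-4.87 ± 1.02, adjusted p = 0.00128), and its receptor BMPR1A at 8.12 to 42.3 CPM (median 19.9) in 8-cell embryos and 0 to 10.4 CPM (median 2.16) in morulas (-2.72 ± 0.69, adjusted p = 0.00575). FSTL4, a follistatin-like protein, fell by 6.28 ± 1.295 on the log2 scale. In SoLo 1 of 27 fell, and BMPR1A was at -0.01 ± 0.37 there (adjusted p = 0.987), so this list did not keep its count in the second kit. None of 20 NOTCH genes rose and 3 fell, among them the receptor NOTCH2 and the co-activator MAML2. NOTCH2 stood at 0.547 to 158 CPM (median 44.5) in 8-cell embryos and 0.156 to 13.5 CPM (median 1.28) in morulas (-4.03 ± 1.03, adjusted p = 0.00588). MAML2 was at -4.96 ± 1.20 but at -3.14 without 020816_09 (adjusted p = 0.0613). Of 25 genes of IGF, insulin and relaxin signalling none rose and 5 fell, the binding protein IGFBP5, the growth factor IGF2, and the insulin receptor substrates IRS1, IRS2 and IRS4. IGFBP5 stood at 1.06 to 621 CPM (median 56.1) in 8-cell embryos and 0.683 to 3.17 CPM (median 0.973) in morulas (-6.62 ± 0.82, adjusted p = 4.25e-07). It was high in 8 of 9 8-cell embryos (19.6 to 621 CPM) and at 1.06 CPM in 011516_02, and without the 3 embryos with cumulus transcripts it was at -5.14 (adjusted p = 0.000138). IGF2 stood at 0 to 125 CPM (median 19.8) in 8-cell embryos and 0 to 8.40 CPM (median 0.340) in morulas (-4.42 ± 1.29, adjusted p = 0.0143), with 0 CPM among the values of both groups.

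Called genes of the mitochondrion were higher in morulas. Over 6 lists (respiratory chain complex I, complexes II to IV, ATP synthase, mitochondrial ribosomal proteins, import and dynamics, and pyruvate dehydrogenase with the citrate cycle) members were called higher in each and none was called lower by edgeR in SPIA. In voom with title code 4 mitochondrial ribosomal protein genes were lower, as was 1 without the 4 embryos of high cumulus sum, and without 020816_09 1 ATP synthase gene was lower. In SoLo 15 of 44 mitochondrial ribosomal protein genes rose and 2 fell. Of 40 genes of pyruvate dehydrogenase and the citrate cycle 11 rose (27.5%; median 0.53), 6 of them repeat-called. PDHB, the E1 beta subunit of pyruvate dehydrogenase, stood at 0.912 to 159.6 CPM (median 47.9) in 8-cell embryos and 31.4 to 846 CPM (median 380.5) in morulas (2.68 ± 0.44, adjusted p = 7.69e-05). DLD, the shared E3 subunit, stood at 28.1 to 88.9 CPM (median 40.3) in 8-cell embryos and 16.0 to 569 CPM (median 148) in morulas (2.09 ± 0.40, adjusted p = 0.000432). GLUD1, glutamate dehydrogenase, stood at 8.65 to 237 CPM (median 69.4) in 8-cell embryos and 158 to 732 CPM (median 285) in morulas (2.09 ± 0.37, adjusted p = 0.000223). In each of these at least 10 of 11 morulas lay above the 8-cell median. PDP2, a phosphatase that switches pyruvate dehydrogenase on, rose by 4.34 ± 0.80 (adjusted p = 0.000314), and MDH2, DLAT, GPT2, IDH3A, MDH1, PDHA1 and FH completed the group. In SoLo 24 of 40 rose and 1 fell.

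Oxidative phosphorylation followed the same direction. Of 10 ATP synthase genes 5 rose (median 1.18), of 22 complex I genes 6 rose (27.3%; median 1.01), and of 24 genes of complexes II to IV 4 rose (median 0.98). ATP5F1A, the alpha subunit of the F1 part, stood at 25.4 to 109 CPM (median 73.5) in 8-cell embryos and 41.6 to 662 CPM (median 332) in morulas (2.27 ± 0.34, adjusted p = 1.77e-05). ATP5MC3, a subunit of the membrane ring, stood at 0.274 to 57.7 CPM (median 12.6) in 8-cell embryos and 4.86 to 618 CPM (median 91.2) in morulas (3.07 ± 0.56, adjusted p = 0.000304). Only morula 022916_02 lay inside the 8-cell range in ATP5F1A. The complex I subunits NDUFA4 (2.31 ± 0.48), NDUFB4 (1.88 ± 0.47) and NDUFB8 (3.11 ± 0.79) rose, as did COX5A of cytochrome oxidase (1.83 ± 0.39). NDUFA4 is counted with complex I here, though the protein is also described in cytochrome oxidase. NDUFB4 and NDUFB8 were not called with the stages alone (adjusted p = 0.0638 and 0.0652). In SoLo 11 of 22 complex I genes, 11 of 24 genes of complexes II to IV and 5 of 10 ATP synthase genes rose, and 1 ATP synthase gene fell. The identifiers of mitochondrially encoded genes carry no name in the tables used here, so they are not described.

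The share called higher was near that of complex I for import genes and smaller for genes of translation in the organelle. Of 33 genes of mitochondrial import and dynamics 8 rose (24.2%; median 0.60). VDAC2, a channel of the outer membrane, stood at 17.9 to 526 CPM (median 332) in 8-cell embryos and 451 to 1809 CPM (median 699.8) in morulas (1.33 ± 0.32, adjusted p = 0.00384), and SLC25A3, the phosphate carrier, at 0.547 to 124 CPM (median 54.2) in 8-cell embryos and 52.5 to 366 CPM (median 173) in morulas (1.78 ± 0.43, adjusted p = 0.00391). CHCHD3, a scaffold of the cristae, rose by 2.58 ± 0.53, and PMPCB, a subunit of the peptidase that removes import signals, by 2.72 ± 0.63. Of 44 mitochondrial ribosomal protein genes 6 rose (13.6%, median 0.85). With the stages alone 1 of 42 rose, and 0 are repeat-called. Among the 6, MRPL9 stood at 29.8 to 117 CPM (median 69.9) in 8-cell embryos and 13.6 to 404 CPM (median 201) in morulas (1.65 ± 0.35, adjusted p = 0.00147). For VDAC2, SLC25A3 and PDHB the lowest 8-cell value was that of 020816_09 (17.9, 0.547 and 0.912 CPM), far under the other 8-cell embryos. Without that embryo VDAC2 was at 1.17 (adjusted p = 0.00152), SLC25A3 at 1.61 (0.00135) and PDHB at 2.51 (6.96e-06).

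**Figure D4:**
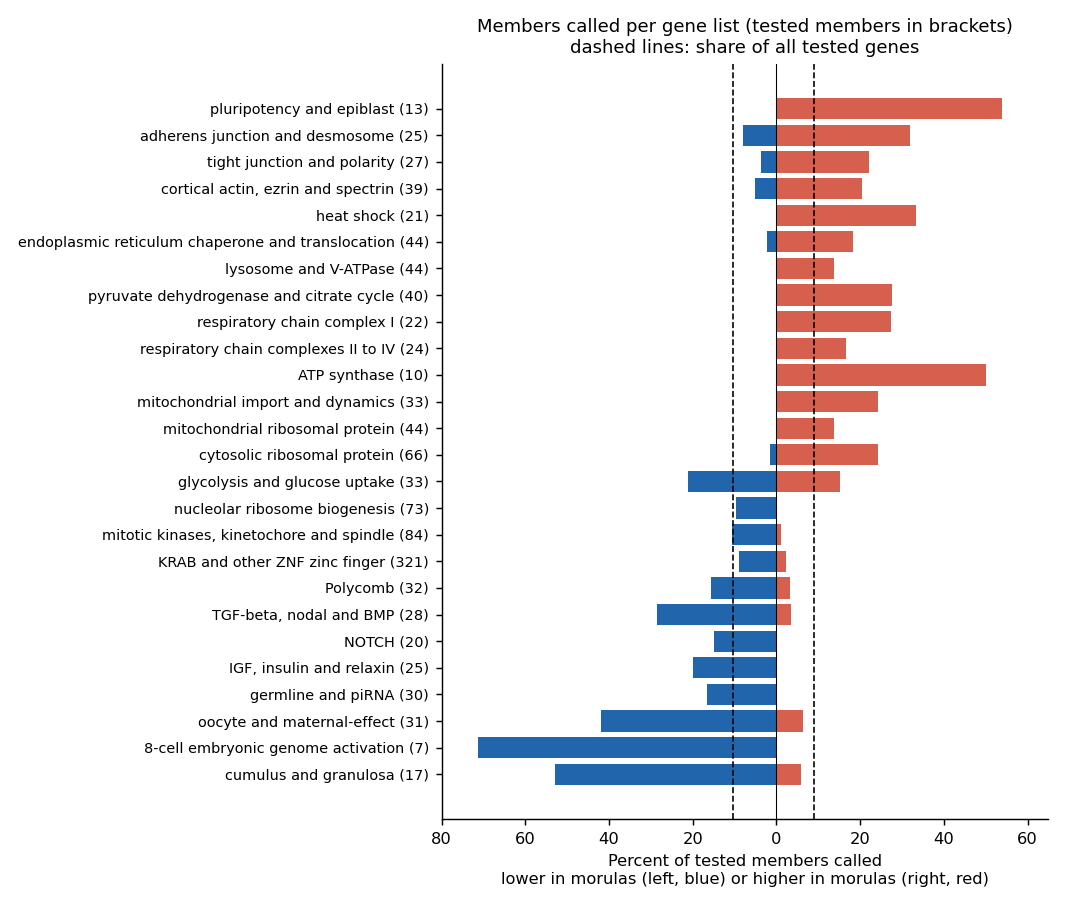
Percent of the tested members of 26 gene lists called lower (left, blue) or higher (right, red) in morulas, with the number tested in brackets and the shares over all tested genes, 10.3% lower and 9.06% higher, as dashed lines. Mitochondrial lists reach to the right only, and germline, maternal and genome activation lists mostly to the left.

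Glycolysis changed in both directions. Of 33 genes of glycolysis and glucose uptake 5 rose and 7 fell. HK2, the hexokinase bound to mitochondria, stood at 1.64 to 452 CPM (median 345) in 8-cell embryos and 153 to 1855 CPM (median 712) in morulas (1.52 ± 0.40, adjusted p = 0.00716), and PFKL, the liver-type phosphofructokinase, at 0 to 1.13 CPM (median 0.132) in 8-cell embryos and 0 to 156 CPM (median 23.0) in morulas (6.84 ± 1.03, adjusted p = 1.75e-05). GPD2, the mitochondrial end of the glycerol phosphate shuttle, stood at 0.435 to 37.5 CPM (median 7.02) in 8-cell embryos and 1.23 to 542 CPM (median 112) in morulas (3.69 ± 0.69, adjusted p = 0.000381), and LDHB rose by 1.84 ± 0.48. For HK2 and GPD2 alike, 10 of 11 morulas lay above all 8-cell embryos. The members that fell included transporters and the isoenzymes HK3, PKLR and ENO2. SLC16A1, a lactate and pyruvate carrier, stood at 233 to 1175 CPM (median 564) in 8-cell embryos and 60.5 to 521 CPM (median 229) in morulas (-1.45 ± 0.33, adjusted p = 0.00235). SLC2A4, the insulin-regulated glucose transporter, stood at 1.19 to 210.1 CPM (median 46.4) in 8-cell embryos and 0 to 5.87 CPM (median 0.216) in morulas (-5.49 ± 1.11, adjusted p = 0.000934), and HK3, a further hexokinase, at 1.32 to 519.8 CPM (median 50.05) in 8-cell embryos and 0.156 to 49.6 CPM (median 2.25) in morulas (-3.67 ± 0.88, adjusted p = 0.0037). PFKFB2 and SLC16A6 also fell. With the stages alone HK2 and LDHB were not called (adjusted p = 0.0652 and 0.0602). In SoLo HK3 was at -1.62 ± 1.496 (adjusted p = 0.485).

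Amino acid synthesis and the integrated stress response gave a small set of large changes. ASNS, asparagine synthetase, an ATF4 target, stood at 0.145 to 6.19 CPM (median 2.13) in 8-cell embryos and 7.07 to 187 CPM (median 53.3) in morulas (4.88 ± 0.67, adjusted p = 3.73e-06). PSAT1, an enzyme of serine synthesis, stood at 0 to 12.5 CPM (median 7.82) in 8-cell embryos and 0.247 to 182 CPM (median 106) in morulas (3.79 ± 0.86, adjusted p = 0.0025). ASNS separated all morulas from all 8-cell embryos, and PSAT1 did so for 9 of 11 morulas. TRIB3, a pseudokinase induced with ATF4, was at most 0.132 CPM in 8-cell embryos and had a median of 3.14 CPM in morulas. PPP1R15A (GADD34), which restores translation by dephosphorylating eIF2 alpha, fell, at 25.1 to 276 CPM (median 59.1) in 8-cell embryos and 0.778 to 26.8 CPM (median 6.27) in morulas (-2.89 ± 0.68, adjusted p = 0.00344). Of 24 genes of the unfolded protein and integrated stress responses 4 rose and 2 fell. Of 31 genes of one-carbon, serine and methionine metabolism 6 rose and none fell (median 0.46), and of 47 tRNA synthetase and tRNA modification genes 5 rose and 3 fell. The cytosolic synthetases CARS1 (2.63 ± 0.62) and TARS1 (1.63 ± 0.40) rose, and TARS1 is repeat-called. SLC6A19, a neutral amino acid transporter, was at most 0.145 CPM in 8-cell embryos and reached 79.6 CPM in morulas, with 7 of 11 above all 8-cell embryos.

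Called genes of chaperones and of translocation into the endoplasmic reticulum were mostly higher. Further along the secretory route, of 46 COPI, COPII and Golgi genes 4 rose (8.70%, against 9.06% over all genes) and 1 fell. With the stages alone 0 of 42 of these were called, and in SoLo 8 of 47 rose and 2 fell. Of 21 heat shock gene identifiers 7 rose (33.3%) and none fell, and 2 of the 7 are identifiers of HSPE1. HSPD1, the mitochondrial chaperonin HSP60, stood at 30.4 to 198 CPM (median 40.4) in 8-cell embryos and 83.6 to 1194 CPM (median 347) in morulas (2.84 ± 0.40, adjusted p = 5.11e-06). HSPA4, a nucleotide exchange factor of HSP70, stood at 21.3 to 146 CPM (median 81.0) in 8-cell embryos and 45.7 to 594 CPM (median 195) in morulas (1.55 ± 0.37, adjusted p = 0.00371), and CCT4, a subunit of the cytosolic chaperonin, at 1.00 to 93.1 CPM (median 37.1) in 8-cell embryos and 80.5 to 653 CPM (median 179.7) in morulas (2.35 ± 0.45, adjusted p = 0.00044). In all 3 at least 9 of 11 morulas lay above all 8-cell embryos. Of 44 chaperone and translocation genes of the endoplasmic reticulum 8 rose and 1 fell (median 0.24), and in SoLo 21 of 44 rose and none fell. SPCS1, a subunit of the signal peptidase, stood at 0.145 to 27.4 CPM (median 4.84) in 8-cell embryos and 7.78 to 336 CPM (median 71.7) in morulas (3.17 ± 0.64, adjusted p = 0.000912), while CRELD2, an endoplasmic reticulum stress gene, rose by 3.86 ± 0.94 and RPN1, of the glycosylation complex, by 1.88 ± 0.57. HSP90B1 (GRP94) stood at 106 to 786 CPM (median 266) in 8-cell embryos and 111 to 3555 CPM (median 1180) in morulas (2.36 ± 0.44, adjusted p = 0.000363). Its direction turned with depth: fitted on the 5 8-cell embryos and 3 morulas above 12 M counts, with the blastocysts kept, it was at -0.72. Those 3 morulas held 111, 166 and 368 CPM, and the other 8 held 760 to 3555 CPM.

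Lysosomal genes showed 6 called higher among 44 and none lower, with a median of 0.87. CTSL, the protease cathepsin L, stood at 0.0924 to 19.4 CPM (median 2.38) in 8-cell embryos and 24.3 to 547 CPM (median 61.3) in morulas (4.10 ± 0.68, adjusted p = 8.51e-05). NPC2, which hands cholesterol to the lysosomal membrane, stood at 0 to 9.93 CPM (median 1.93) in 8-cell embryos and 0.494 to 87.9 CPM (median 41.4) in morulas (3.52 ± 0.65, adjusted p = 0.000304). LAMP1, an abundant lysosomal membrane protein, stood at 103 to 373 CPM (median 232) in 8-cell embryos and 316 to 861 CPM (median 492) in morulas (1.34 ± 0.28, adjusted p = 0.00132). For NPC2 and LAMP1, 10 of 11 morulas were above all 8-cell embryos. CTSB, CTSZ and the lysosomal transcription factor TFEB also rose. LAPTM4B, a late endosomal membrane protein outside the list, stood at 215 to 716 CPM (median 354) in 8-cell embryos and 426 to 1499 CPM (median 841) in morulas (1.23 ± 0.25, adjusted p = 0.00104). In the ubiquitin system UBE2J1, a conjugating enzyme of the endoplasmic reticulum, stood at 0.0912 to 2.15 CPM (median 0.784) in 8-cell embryos and 0.366 to 50.5 CPM (median 19.4) in morulas (4.28 ± 0.62, adjusted p = 1.14e-05), whereas the proteasome list held 4 higher and 4 lower of 38.

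Lipid and solute genes moved singly. Of 19 cholesterol synthesis genes 2 rose and 1 fell. ACSL3, which activates fatty acids at lipid droplets, rose by 1.59 ± 0.41 and ELOVL4, an elongase of very long chains, fell by 3.31 ± 0.90, within a list of 38 with 5 higher and 3 lower. SLC4A2, an anion exchanger, stood at 0.245 to 23.6 CPM (median 1.88) in 8-cell embryos and 9.20 to 60.2 CPM (median 36.3) in morulas (2.67 ± 0.63, adjusted p = 0.00323), and was the only member of 31 ion and water transport genes that rose, with 4 falling. SLC39A4, a zinc importer, stood at 0 to 46.2 CPM (median 0.725) in 8-cell embryos and 6.89 to 489 CPM (median 91.5) in morulas (4.55 ± 0.90, adjusted p = 0.00102). PRPS1, which makes the ribose donor of nucleotide synthesis, rose by 2.04 ± 0.48.

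Called genes of the cytoplasmic ribosome were mostly higher, while the share of nucleolar genes called lower was close to that of all genes in SPIA. Of 66 cytosolic ribosomal protein genes 16 rose (24.2%) and 1, RPL3, fell, with 53 of 66 above 0 and a median of 0.59. RPS27A stood at 68.4 to 248 CPM (median 93.3) in 8-cell embryos and 129 to 750.1 CPM (median 249.6) in morulas (1.42 ± 0.31, adjusted p = 0.00182) and RPL13 at 69.2 to 228 CPM (median 169.5) in 8-cell embryos and 173 to 789 CPM (median 311) in morulas (1.00 ± 0.27, adjusted p = 0.0092). With the stages alone 1 of 63 was called, while in SoLo 17 of 65 rose and none fell. Of 73 nucleolar ribosome biogenesis genes none rose and 7 fell (9.59%, against 10.3% over all genes), with 49 of 73 below 0 and a median of -0.43. NOLC1, a nucleolar phosphoprotein, stood at 82.4 to 752 CPM (median 412) in 8-cell embryos and 46.0 to 384 CPM (median 203) in morulas (-1.11 ± 0.30, adjusted p = 0.00967), and FBL, the methyltransferase fibrillarin, at 120.1 to 286 CPM (median 209) in 8-cell embryos and 33.7 to 216 CPM (median 113) in morulas (-1.07 ± 0.33, adjusted p = 0.0183). RRP8, which methylates ribosomal RNA, fell as well (-2.20 ± 0.68). With the stages alone NOLC1, FBL and RRP8 were not called (adjusted p = 0.0876, 0.0929 and 0.0832). Of 30 genes of RNA polymerases I and III 4 fell, among them the polymerase I factor RRN3 (-1.996 ± 0.68) and the polymerase III subunit POLR3F (-2.14 ± 0.66), which lost its call without 8-cell 020816_07 (adjusted p = 0.0667). In SoLo 13 of 73 nucleolar genes fell (17.8%, against 6.92% over all genes there) and 3 rose. Among translation factors EIF2S2, the beta subunit of eIF2, rose by 1.27 ± 0.33 and EIF2B1, a subunit of its exchange factor, stood at 40.6 to 250.2 CPM (median 76.4) in 8-cell embryos and 0 to 56.5 CPM (median 8.13) in morulas (-2.58 ± 0.68, adjusted p = 0.00703).

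The DNA methylation machinery changed in both directions. Of 25 genes 3 rose and 3 fell, with a median of 0.22. DNMT1, the maintenance methyltransferase, stood at 706 to 49172 CPM (median 4509) in 8-cell embryos and 58.3 to 2122 CPM (median 247) in morulas (-3.89 ± 0.79, adjusted p = 0.00161). All 11 morulas lay below the 8-cell median and 9 below every 8-cell embryo. The 8-cell maximum belonged to 020816_09, without which the change was -2.61 (adjusted p = 0.00916). CTCFL (BORIS), a germline paralog of CTCF, fell by 5.22 ± 1.19 and was not called without that embryo (-2.90, adjusted p = 0.079). TET1, which oxidises methylated cytosine, stood at 4.93 to 855 CPM (median 49.8) in 8-cell embryos and 258 to 1252 CPM (median 467) in morulas (1.94 ± 0.48, adjusted p = 0.00498). Every morula was above the 8-cell median, but only 2 were above the highest 8-cell embryo, 011516_02. DNMT3L, the cofactor of de novo methylation, stood at 0.0912 to 56.8 CPM (median 1.90) in 8-cell embryos and 0.366 to 187 CPM (median 40.7) in morulas (2.26 ± 0.78, adjusted p = 0.036) and lost its call on leaving out any 1 of 8 of the 20 libraries (highest adjusted p = 0.0761). In SoLo UHRF1 and DNMT1 (-3.71 ± 0.69) fell and TET1 (3.02 ± 0.34) and DNMT3L (2.61 ± 0.27) rose. Whether the changes of DNMT1 and TET1 differ from each other was not tested.

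Polycomb and other chromatin genes were called lower more often than higher in SPIA, which SoLo showed for Polycomb genes and not for the other lists given here. The shares called lower were 12.1% of methyltransferase and demethylase genes and 10.8% of acetyltransferases and readers, near the 10.3% over all genes. Their shares called higher, 3.45% and 2.70%, were under the 9.06% over all genes. Of remodelling genes 15.6% were lower and 6.67% higher. Of 32 Polycomb genes 5 fell (15.6%) and 1 rose, with a median of -1.03. PHC1, a subunit of the canonical repressive complex 1, stood at 2.12 to 820.5 CPM (median 26.1) in 8-cell embryos and 1.499 to 29.0 CPM (median 5.11) in morulas (-3.79 ± 0.71, adjusted p = 0.000363), and CBX8, its reader of methylated histone H3, at 0.182 to 271 CPM (median 22.7) in 8-cell embryos and 0 to 8.43 CPM (median 0.881) in morulas (-4.65 ± 1.01, adjusted p = 0.00169). ASXL2, of the complex that removes ubiquitin from H2A, fell by 1.55 ± 0.39. SUZ12, a core subunit of complex 2, rose, at 56.7 to 472 CPM (median 170) in 8-cell embryos and 212 to 919 CPM (median 363) in morulas (1.17 ± 0.32, adjusted p = 0.00868). In SoLo 6 of 32 fell and 1 rose. Of 58 histone methyltransferase and demethylase genes 7 fell and 2 rose, while in SoLo 10 fell and 11 rose. Among those that fell were KMT5A, which monomethylates histone H4, at 153 to 609 CPM (median 206) in 8-cell embryos and 14.0 to 254 CPM (median 97.5) in morulas (-1.55 ± 0.37, adjusted p = 0.00379) and the demethylase KDM5A at 196 to 447 CPM (median 268) in 8-cell embryos and 18.1 to 225 CPM (median 95.2) in morulas (-1.37 ± 0.34, adjusted p = 0.00518). For both genes 10 of 11 morulas lay below every 8-cell embryo. GATAD2A, of the NuRD complex, fell by 1.46 ± 0.34. Among 45 remodelling genes 3 rose, SMARCAD1 first (1.51 ± 0.36), and 7 fell, but 6 of those 10 calls were lost without 020816_09, and in SoLo 4 rose and 3 fell. NCOA1, a co-activator with acetyltransferase activity, rose by 1.90 ± 0.50 in a list of 37 acetyltransferases and readers in which 4 others fell. In SoLo 7 of that list rose and 1 fell.

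The largest list, 321 zinc finger genes of the ZNF series, many of which encode KRAB repressors, held 29 lower (9.03%) and 7 higher (2.18%), with 205 of 321 below 0 and a median of -0.44. The share called lower is near that of all genes, and the share called higher is under it. ZNF600 separated all morulas from all 8-cell embryos (10.9 to 75.5 CPM (median 34.1) against 0.389 to 9.14 CPM (median 2.66), 8-cell first). ZNF292 stood at 42.0 to 340.2 CPM (median 96.5) in 8-cell embryos and 0.427 to 84.1 CPM (median 9.99) in morulas (-2.61 ± 0.54, adjusted p = 0.00111), ZNF473, a factor of histone mRNA processing, at 116 to 385 CPM (median 303) in 8-cell embryos and 0.389 to 191 CPM (median 43.5) in morulas (-1.98 ± 0.47, adjusted p = 0.00334), and ZNF679 at 2.83 to 359.7 CPM (median 126) in 8-cell embryos and 0.705 to 96.9 CPM (median 2.80) in morulas (-3.46 ± 0.81, adjusted p = 0.00334). All 3 lay below the 8-cell median in each of the 11 morulas. Without 020816_09, 16 of the 36 calls in the list were lost, and with the stages alone 7 were lower and none higher. Zinc finger genes have close relatives, so their counts may be shared between copies.

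In SPIA the cell cycle and genome maintenance lists stayed near or under the shares over all genes. Of 84 genes of mitotic kinases, kinetochore and spindle 9 fell and 1 rose (median -0.25), and in SoLo 17 fell (20.2%, against 6.92% over all genes there) and 3 rose. TACC3, a spindle protein, stood at 63.0 to 2424 CPM (median 239) in 8-cell embryos and 3.17 to 308 CPM (median 38.8) in morulas (-3.02 ± 0.60, adjusted p = 0.000936), CENPQ, of the inner kinetochore, at 30.1 to 728 CPM (median 126) in 8-cell embryos and 11.1 to 99.1 CPM (median 35.6) in morulas (-2.29 ± 0.47, adjusted p = 0.000987), and TPX2, which activates Aurora A, at 315 to 1017 CPM (median 596) in 8-cell embryos and 108 to 899.8 CPM (median 162) in morulas (-1.20 ± 0.32, adjusted p = 0.00801). PLK4, the kinase that starts centriole duplication, was the one that rose, at 0.182 to 42.9 CPM (median 2.46) in 8-cell embryos and 24.5 to 356 CPM (median 74.2) in morulas (2.98 ± 0.68, adjusted p = 0.00249). Its SoLo change was 0.88 ± 0.41 (adjusted p = 0.148). Of 41 cyclins, CDKs and inhibitors 4 fell, CCND1, CCNB3, CDC25B and CCNA1, and CCNG1 rose. CCNB3, an oocyte B-type cyclin, stood at 30.9 to 677 CPM (median 124) in 8-cell embryos and 5.75 to 110.5 CPM (median 17.9) in morulas (-2.58 ± 0.54, adjusted p = 0.0013), CCNA1, the germline cyclin A, at 14.8 to 222 CPM (median 126) in 8-cell embryos and 0 to 75.5 CPM (median 2.16) in morulas (-2.92 ± 0.96, adjusted p = 0.0286), and CCNG1, a p53 target, at 12.6 to 156 CPM (median 43.0) in 8-cell embryos and 97.8 to 663 CPM (median 150.4) in morulas (1.98 ± 0.43, adjusted p = 0.00168). Of 37 genes of the anaphase-promoting complex, cohesin and condensin 3 rose and 4 fell. The subunits ANAPC1 (1.93 ± 0.43) and CDC16 (2.34 ± 0.53) of the complex rose with PDS5B, and its subunit ANAPC10 fell with PTTG1, NCAPH and NCAPH2. In replication and repair CLSPN, the checkpoint adaptor claspin, stood at 249.6 to 699 CPM (median 384) in 8-cell embryos and 49.3 to 307 CPM (median 86.8) in morulas (-1.84 ± 0.33, adjusted p = 0.000208), and BRCA1 at 73.3 to 177 CPM (median 101) in 8-cell embryos and 12.3 to 87.2 CPM (median 36.1) in morulas (-1.60 ± 0.33, adjusted p = 0.00121). MCM3 (1.32 ± 0.34), NBN, of the break-sensing MRN complex (2.47 ± 0.51), and PARP1 (1.34 ± 0.36) rose.

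Maternal and germline genes were called lower more often than higher. Of 31 genes of the oocyte or of maternal effect, 13 (41.9%) fell while 2 rose (median -2.07), and without 020816_09 8 fell. NLRP4, an oocyte NLRP protein, stood at 103 to 4409 CPM (median 965) in 8-cell embryos and 4.54 to 198 CPM (median 99.0) in morulas (-3.71 ± 0.70, adjusted p = 0.000658). NLRP7, from the same family and known for its role in the maternal control of imprinting, went the other way, at 38.2 to 597 CPM (median 159) in 8-cell embryos and 77.8 to 2397 CPM (median 1212) in morulas (2.46 ± 0.40, adjusted p = 7.4e-05), with 10 of 11 morulas above all 8-cell embryos. NLRP2 was the other that rose. NLRP genes are near-identical in places, so reads may have been divided between them. Of 30 germline and piRNA genes 5 fell (16.7%) and none rose (median -1.27), and in SoLo 8 fell and 1 rose. PIWIL3, an Argonaute protein of primate oocytes, stood at 3.29 to 266 CPM (median 83.0) in 8-cell embryos and 0.778 to 53.2 CPM (median 4.54) in morulas (-2.80 ± 0.77, adjusted p = 0.00988), and TEX15, a germ cell protein, at 0 to 122 CPM (median 89.9) in 8-cell embryos and 0 to 39.3 CPM (median 4.02) in morulas (-3.18 ± 0.98, adjusted p = 0.0194). TDRD9, a helicase of the piRNA pathway, was at -2.75 ± 0.93 and was not called without 020816_09 (-2.33, adjusted p = 0.0772). Only 7 of the 24 listed genes of 8-cell genome activation had an identifier and were tested. All 7 lay below 0 and 5 of them fell. Without 020816_09 5 fell, without the 3 embryos with cumulus transcripts 3, and without the 4 embryos of high cumulus sum 1. With the stages alone 2 of 6 fell, in voom with title code all 7, and in SoLo 3 of 7. IGF2BP3, YTHDF2 and CNOT6, of RNA storage and clearance, fell, and DDX6 rose, out of 41 tested. These shares, 7.32% lower and 2.44% higher, lie under the 10.3% and 9.06% over all genes. In SoLo 7 of that list fell and 6 rose.

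Lineage genes were called in part. Of 28 listed genes of pluripotency and the epiblast 13 were tested, and 7 of these (53.8%) rose, with 0 called lower (median 2.26). KLF4, TBX3, DPPA4 and DPPA2 are repeat-called. Without 020816_09 5 rose and 1 fell, and in voom with title code 6 rose and 1 fell. TBX3 stood at 0 to 6.30 CPM (median 0.414) in 8-cell embryos and 1.25 to 163 CPM (median 8.91) in morulas (4.54 ± 0.82, adjusted p = 0.0003). The neighbouring chromatin regulators DPPA2 and DPPA4 rose together. DPPA2 stood at 0.182 to 34.0 CPM (median 2.51) in 8-cell embryos and 0.905 to 260.4 CPM (median 76.7) in morulas (3.86 ± 0.77, adjusted p = 0.00109) and DPPA4 at 0 to 7.84 CPM (median 0.435) in 8-cell embryos and 0 to 56.8 CPM (median 22.7) in morulas (4.16 ± 0.83, adjusted p = 0.000832). Of 31 trophectoderm and trophoblast genes 8 rose and 3 fell (median 0.12), with KRT18 at 0 to 8.62 CPM (median 0.471) in 8-cell embryos and 1.60 to 98.6 CPM (median 16.3) in morulas (4.13 ± 0.79, adjusted p = 0.000542). Of 20 primitive endoderm genes 7 rose and 2 fell (median 0.76). OTX2, a homeobox factor outside these lists, stood at 101 to 11868 CPM (median 1442) in 8-cell embryos and 12.04 to 1958 CPM (median 85.1) in morulas (-2.82 ± 0.85, adjusted p = 0.0197) and was not called without 020816_09 (-1.88, adjusted p = 0.102). In the imprinted list 3 rose and 6 fell of 21. GRB10, a growth-inhibiting adaptor, rose by 1.49 ± 0.40, and PLAGL1, a zinc finger factor, was among those that fell. PLAGL1 was at 30.5, 70.7 and 55.4 CPM in 020816_06, 020816_07 and 112815_02, the embryos with cumulus transcripts. It was at 21.2 CPM in 020816_10 and at 0 to 0.4935 CPM in the other 8-cell embryos, against 0 to 0.4996 CPM in morulas. Of 40 circadian and nuclear receptor genes 6 rose and 3, PGR, THRA and NR3C1, fell, while none of 25 was called with the stages alone and in SoLo 5 rose and 6 fell. The 6 included ESRRG (4.37 ± 0.90), a regulator of mitochondrial genes, and PPARA (2.51 ± 0.68), a regulator of fatty acid oxidation. NFE2L2 (NRF2), the antioxidant regulator, stood at 0.145 to 46.0 CPM (median 2.08) in 8-cell embryos and 4.75 to 85.6 CPM (median 37.5) in morulas (2.19 ± 0.65, adjusted p = 0.0157) and was not called with the stages alone (adjusted p = 0.13).

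**Figure D5:**
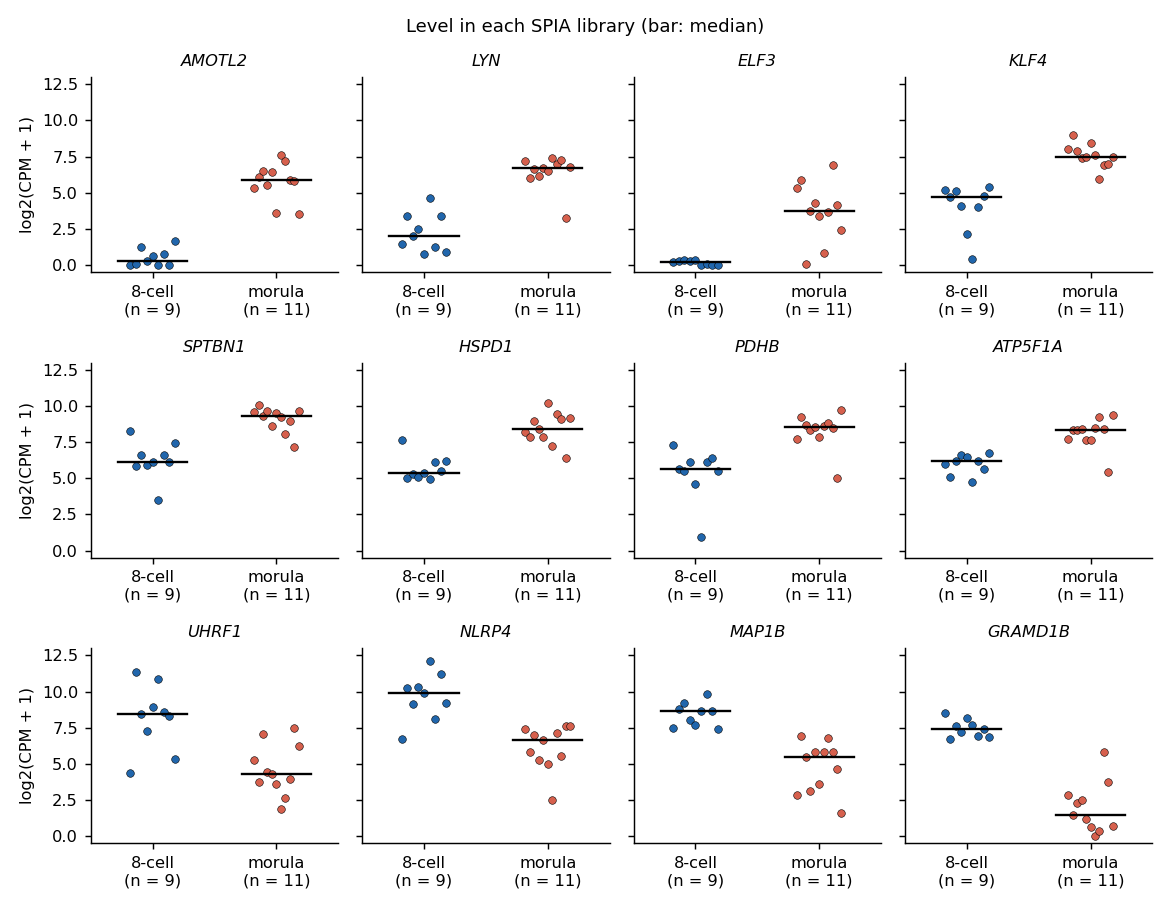
Level (vertical axis, log2(CPM + 1)) of 12 genes in each SPIA library, blue for 8-cell embryos and red for morulas, with a bar at the median. AMOTL2, KLF4, MAP1B and GRAMD1B do not overlap between the groups, and in ATP5F1A 1 morula, 022916_02, lies in the 8-cell range.

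Other called genes of smallest p had no place in the lists. MYCBP2, a large ubiquitin ligase, stood at 16.7 to 142 CPM (median 45.9) in 8-cell embryos and 38.1 to 1522 CPM (median 635) in morulas (3.69 ± 0.43, adjusted p = 1.02e-07). STAU1, a protein of RNA transport and decay, stood at 719 to 3419 CPM (median 905) in 8-cell embryos and 202 to 787 CPM (median 329) in morulas (-1.65 ± 0.29, adjusted p = 0.000169). DTX2, a deltex ubiquitin ligase, stood at 85.0 to 3044 CPM (median 233) in 8-cell embryos and 3.28 to 186 CPM (median 50.8) in morulas (-3.36 ± 0.59, adjusted p = 0.000195). In STAU1 every morula lay below the 8-cell median and 9 lay below all 8-cell embryos, a small change held by most embryos. FAM120B stood at 26.7 to 734 CPM (median 117) in 8-cell embryos and 1.01 to 68.0 CPM (median 11.7) in morulas (-3.32 ± 0.59, adjusted p = 0.000215) and ADCY3, an adenylate cyclase, at 11.03 to 671 CPM (median 35.8) in 8-cell embryos and 0.670 to 13.4 CPM (median 6.10) in morulas (-4.23 ± 0.77, adjusted p = 0.000275). TOX2 (-4.57 ± 0.96), the dopamine hydroxylase DBH (-4.23 ± 0.92) and the retinol dehydrogenase RDH12 (-4.13 ± 0.87) were among the largest repeat-called decreases, and PRXL2C (4.58 ± 0.88) among the increases. PRXL2C was at 1.08 ± 0.87 in SoLo (adjusted p = 0.415).

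Among the most abundant called genes, several rested on single libraries. AKAP12, a scaffold of protein kinase A, stood at 3.56 to 1083 CPM (median 10.3) in 8-cell embryos and 95.9 to 6128 CPM (median 1610) in morulas (3.91 ± 1.41, adjusted p = 0.0478). Its 8-cell maximum was in 011516_02, and 9 morulas lay above it. The call was lost on leaving out any 1 of 16 libraries (highest adjusted p = 0.0727), although within the shared code the 8-cell range was 3.56 to 11.6 CPM and the morula range 1158 to 2170 CPM. HUWE1, a large ubiquitin ligase, stood at 88.8 to 527 CPM (median 369) in 8-cell embryos and 439 to 2838 CPM (median 846) in morulas (1.70 ± 0.30, adjusted p = 0.000223). EEF1A1 (0.98 ± 0.32), HSPA8 (0.78 ± 0.23) and HMGA1, an architectural chromatin protein (1.10 ± 0.37), rose less. EEF1A1 lost its call without morula 021016_04 (adjusted p = 0.0826) and HMGA1 on leaving out any 1 of 4 libraries (highest adjusted p = 0.0552). Among the abundant genes that fell, HNRNPU, an RNA-binding scaffold of the nucleus, stood at 891 to 2636 CPM (median 1913) in 8-cell embryos and 591 to 1679 CPM (median 1079) in morulas (-0.78 ± 0.21, adjusted p = 0.00932) and ATXN2L at 65.8 to 5399 CPM (median 891) in 8-cell embryos and 154 to 809.9 CPM (median 292) in morulas (-2.01 ± 0.40, adjusted p = 0.000759). UBE2D3, PTTG1 and PCLO lost their calls without 020816_09, at -0.51 (adjusted p = 0.259), -0.99 (0.052) and -1.33 (0.0611). PROSER1 and the histone variant gene H2AZ1 lost theirs on leaving out any 1 of 10 and 14 libraries (highest adjusted p = 0.718 and 0.127).

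Markers of sperm and of blood cells were summed in each library. A list of 12 sperm markers summed to 3.18 to 174 CPM in 8-cell embryos and 3.98 to 110 CPM in morulas, and 3 of 7 tested members fell. ACR, the acrosomal protease, was at -3.47 ± 1.05 and was not called without 8-cell 020816_08 (adjusted p = 0.103). A list of 17 blood and immune markers summed to 17.4 to 642 CPM in 8-cell embryos, the highest in 020816_09, and 1.46 to 83.9 CPM in morulas. Of the 642 CPM in 020816_09, 637.3 CPM were CSF1R, a receptor of macrophages and of trophoblast. PTPRC, CD3E and CD79A were at 0 in all 8-cell embryos. In morulas CD3E was at 0 in all, and PTPRC and CD79A had a count in 2 each, reaching 3.5 and 0.2498 CPM.

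The gene groups were counted again with the 2 stages fitted alone, where 4.78% of all genes were called in either direction. Called higher and lower there were 6 and 0 of 35 genes of pyruvate dehydrogenase and the citrate cycle, 6 and 1 of 36 of the actin cortex, and 4 and 0 of 12 pluripotency genes. Adherens junctions and desmosomes gave 2 and 0 of 21, tight junctions and polarity 1 and 0 of 20, and heat shock genes 3 and 0 of 18. ATP synthase gave 2 and 0 of 10, complex I 1 and 0 of 21, lysosomal genes 3 and 0 of 36, oocyte genes 2 and 7 of 26, and the TGF-beta, nodal and BMP list 0 and 2 of 22. In most of these groups fewer genes were called than in the joint fit. The direction was kept, but the 8-cell and morula libraries were the same in both fits. Without 8-cell 020816_09, adherens junctions and desmosomes gave 11 higher and 0 lower, actin cortex genes 10 and 1, the TGF-beta, nodal and BMP list 2 and 5, Polycomb genes 1 and 4 and zinc finger genes 9 and 17. Of the genes given with values above, 136 were called with the stages alone, 7 were not tested there (GCSH, CLDN4, AGRN, TRIB3, SLC6A19, PLAGL1 and ESRRG) and the others were not called. Those not called and not yet named as such were HSPA8, HNRNPU, RPN1, SLC25A3, ACSL3, RPL13, EIF2S2, EIF2B1, RRN3, TET1, DNMT3L, ASXL2, SUZ12, NCOA1, BMPR1A, TCF7L1, PARP1, TPX2, GRB10, PPARA, EEF1A1, HMGA1, UBE2D3, PROSER1, OTX2, H2AZ1, POLR3F, TDRD9 and ACR. In limma voom with title code as a random effect AKAP12, HSP90B1, NLRP7, HK2, DNMT1, UBE2D3, PROSER1, PTTG1, H2AZ1, LAMB1, CRELD2, PSAT1, CARS1, PMPCB, MRPL9, RRP8, RRN3, CTCFL, ANAPC1, TIMP1, VCAN and FN1 were not called. Without the 3 embryos with cumulus transcripts AKAP12, EEF1A1, HMGA1, H2AZ1, FBL, POLR3F, DNMT3L and NFE2L2 were not. Without 011516_02 as well, HMGA1, H2AZ1, NOLC1, FBL, RRP8, POLR3F, RRN3, DNMT3L, IGF2, WWC1, CCNA1, NFE2L2, TIMP1, VCAN and FN1 were not. UBE2D3, PROSER1 and H2AZ1 were not called in DESeq2, nor AKAP12 with RLE factors.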

How the data were processed

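Gene-level read counts of single embryos were deposited by the authors as whole numbers, 1 column per library, over 26309 Ensembl gene identifiers. HISAT2 and DESeq2 are named per the submitters' processing notes. The counting tool, genome build, annotation and strand setting were not given in the sources used here. Columns were matched to samples by title and kit. Of 52 columns 49 were used, 3 matched no sample label, and 3 samples are not analysed here. Symbols came from a table of gene names and were found for 15078 identifiers.

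SPIA counts of 8-cell embryos, morulas and both blastocyst groups were fitted together in edgeR 4.0.16 (R 4.3.3) with the robust quasi-likelihood test, TMM scaling, filterByExpr and Benjamini-Hochberg adjustment over all tested identifiers. The standard error is the size of the log2 fold change divided by the square root of the F statistic. The filter follows the smallest group, so a gene seen in a few libraries can be tested. SoLo counts were fitted in the same way but separately. CPM were computed from the deposited counts with TMM factors, and plots used log2(CPM + 1). Alternatives used limma 3.58.1 and DESeq2 1.42.0. The edgeR step was tested on simulated data.

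The libraries, gene lists and tests were chosen with earlier results of these data known. Genes were named by rule. Some were taken among called genes with a symbol for which at least 80% of libraries of the higher group reached 5 CPM. These were, per direction, the 12 of smallest p, the 12 of largest fold among repeat-called genes and the 10 of highest level. The 4 markers and up to 4 called members per list and direction were named without that filter on level. Genes whose groups do not overlap, genes gained or lost, and further list members named without values were added after values were seen. Some genes that meet these rules are not reported here. Lists are described by counts and medians, with no set test.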

Additional observations from a re-analysis of the deposited data

Results flagged for a closer look

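Among 184 gene levels over the 9 8-cell libraries, 32 had 1 library far from the rest by Dixon's criterion, which chance meets in about 1 of 20 groups. In 24 of the 32 that library was 020816_09. It held the highest level of STAU1 (3419 CPM), TOX2 (2296 CPM), UBE2D3 (33099 CPM), PROSER1 (22674 CPM) and PTTG1 (6347 CPM). It held the lowest level of HK2 (1.64 CPM), VDAC2 (17.9 CPM), HNRNPU (891 CPM), EPCAM (0.638 CPM), TARS1 (5.84 CPM), PDHB (0.912 CPM), SLC25A3 (0.547 CPM), LDHB (0.365 CPM), RPL13 (69.2 CPM), EIF2S2 (17.1 CPM) and CCT4 (1.003 CPM). The same was true of the nucleolar and polymerase genes NOLC1 (82.4 CPM), RRP8 (0.456 CPM) and RRN3 (0.0912 CPM), of GATAD2A (155.8 CPM), ASXL2 (13.4 CPM), ZNF679 (2.83 CPM) and CCNA1 (14.8 CPM), and of TEX15 (0 CPM). Without 020816_09 UBE2D3, PROSER1 and PTTG1 lost their call and the others kept it.

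In 8-cell 112815_02, an embryo with cumulus transcripts, SLCO1A2 (0.663 CPM), TMEM150C (1.66 CPM) and KRT18 (8.62 CPM) were far above the other 8-cell embryos. HSPD1 (197.6 CPM) and SLC44A1 (8.34 CPM) were so in 011516_02, AGRN (2.51 CPM) in 011516_03 and SLC39A4 (46.2 CPM) in 020816_10. CORO1C was lowest in 020816_07 (17.2 CPM). Why these libraries stand apart was not tested.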

How the results depend on the processing

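The 3024 calls in SPIA became 3197 with RLE factors, 3010 in DESeq2, 2919 without the abundant unnamed identifiers, 2741 without the 3 embryos with cumulus transcripts and 2824 without 011516_02 as well (added after seeing the data). Larger shifts came from limma voom (1811), voom with title code (1988), no filter on low counts (4634), at least 1 CPM in at least 9 libraries (1777), the stages fitted alone (446), and that fit without 020816_09 (474, added after seeing the data). Code 020816 alone gave 4 calls and the other codes 1014. Libraries under 12 M counts gave 1876 and those above 12 M 604 (397 higher and 207 lower), both with the blastocysts kept. With no blastocyst in the fit, libraries above 12 M gave 0 calls in edgeR, with 990 of 11485 genes at an unadjusted p under 0.05. No other tool was run there, and this fit was added after seeing the data. Leaving out 1 library gave 2603 (8-cell 020816_09) to 3541 (morula 022916_02). In SoLo 2371 calls (1388 higher and 983 lower) became 3579 in DESeq2 (1607 and 1972), 2404 with RLE factors (1255 and 1149) and 2038 with no filter, and 1740 (without morula 021016_02) to 2550 (without 8-cell 112815_02) on leaving out 1 library. HSP90B1 turned to -0.72 above 12 M counts with the blastocysts and to -0.67 without them, and the cause was not tested. Of 6597 fits of the named genes under alternatives, 5801 kept direction and call, 794 lost the call and 2 reversed. No paired analysis was possible because the 8-cell and morula groups share no embryo and no replicate number. Fits within a code or depth class held fewer libraries. Depth limits the 382 called genes with no count in a group to a bound. Counts of called list members moved by over 1.5 times in 1342 of 5184 recounts.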
